A study of Mus musculus with 4 samples.

Results

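The 10 genes described here encode the cystine transporter of the plasma membrane, the enzymes that make and recycle glutathione, and antioxidant enzymes driven by the transcription factor NRF2. They were chosen from their known roles, with earlier results of these arrays in view: Slc7a11, Slc3a2, Gclc, Gclm, Gsr, Nqo1, Hmox1, Txnrd1, Srxn1 and Nfe2l2. A gene was followed through the probe set whose annotation gave its symbol and no other. That rule found 9 of the 10 among the 30142 genes of the array, each with 1 probe set. The probe set of Gclm, the modifier subunit of the first enzyme of glutathione synthesis, also lists a second gene, so no value is given for it.

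The cells came from NOD mice, a strain that develops autoimmune diabetes. They were LK cells, sorted as c-Kit-positive and free of lineage markers, a gate that enriches stem and progenitor cells of the blood. In the combination group, LK cells spent 4 h at 37 °C in StemSpan medium with dimethyl prostaglandin E2 (dmPGE2, a long-lived prostaglandin E2 analog) at 10 µM and dexamethasone, a synthetic glucocorticoid, at 10 µM. The vehicle group had DMSO for the same time. Each group had 2 arrays, numbered 1 and 2. The sources used here do not state the age, sex or pooling of the mice, and no array held either drug alone. Signals are log2 values made with RMA, a standard array summary, and differences are combination minus vehicle. Because the genes were chosen with this contrast known, their differences are a description and carry no test.

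Array medians lay between 4.36 and 4.44, and single background probe sets reached 5.55. The stem cell factor receptor gene Kit, the defining marker of the sort, read 10.51 and 9.62 on the combination arrays and 10.18 and 10.32 on the vehicle arrays. Of 8 T and NK cell genes, 7 lay within the background range in both groups, and the other, Nkg7, read 12.60 and 12.75 on the combination arrays and 13.03 and 12.51 on the vehicle arrays. Of 7 stromal and endothelial genes, 6 lay within that range in both groups, and the other, Lepr, read 8.03 and 7.11 on the combination arrays and 4.12 and 4.04 on the vehicle arrays. In such bulk samples, fewer cells of a type and less RNA per cell cannot be told apart.

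System xc- is an antiporter that brings cystine into the cell in exchange for glutamate. Its transport chain is xCT, encoded by Slc7a11, and its heavy chain is CD98hc, encoded by Slc3a2, which also anchors several other amino acid transporters. Cystine is reduced to cysteine, the limiting building block of glutathione. NRF2 is held at low levels by KEAP1 and, once stabilised by oxidants or electrophiles, binds antioxidant response elements near its target genes together with small MAF proteins. Slc7a11 is also a known target of ATF4, the factor of the amino acid and integrated stress responses, which binds C/EBP-ATF elements.

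Upstream sequences are shown for 3 genes: Slc7a11, whose signal differed most, its partner Slc3a2, and Txnrd1, which has a match to the NRF2 motif. Each run is the 250 bases before a RefSeq start site in GRCm38.p6, 5′ to 3′ on the strand of the gene. Capitals mark matches to the C/EBP-ATF element TGATGNAA or to the antioxidant response element core TGACNNNGC, on either strand.
Slc7a11, chr3:50443614-50443863, minus strand: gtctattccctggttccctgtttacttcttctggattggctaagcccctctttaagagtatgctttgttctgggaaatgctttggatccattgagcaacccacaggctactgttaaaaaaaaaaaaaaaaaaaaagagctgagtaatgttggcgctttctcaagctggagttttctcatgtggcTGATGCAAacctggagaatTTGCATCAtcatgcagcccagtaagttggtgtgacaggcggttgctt
Slc3a2, chr19:8713898-8714147, minus strand: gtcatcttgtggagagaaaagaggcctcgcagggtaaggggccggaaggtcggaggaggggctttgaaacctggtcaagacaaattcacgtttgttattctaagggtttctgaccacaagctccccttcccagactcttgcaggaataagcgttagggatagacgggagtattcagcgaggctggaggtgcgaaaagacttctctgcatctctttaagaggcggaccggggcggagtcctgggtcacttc
Txnrd1, second start site, chr10:82858956-82859205, plus strand: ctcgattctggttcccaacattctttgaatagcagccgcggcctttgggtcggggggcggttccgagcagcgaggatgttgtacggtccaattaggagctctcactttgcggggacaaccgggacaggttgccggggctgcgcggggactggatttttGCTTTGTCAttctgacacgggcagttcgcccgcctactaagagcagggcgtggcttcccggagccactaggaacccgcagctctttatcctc

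The Slc7a11 window held the C/EBP-ATF letters in 2 places, in opposite orientation, 66 to 59 and 47 to 40 bases before the start. Among 32851 RefSeq windows of the same length, 1134 (3.45%) held this motif and 13 (0.0396%) held it more than once. The antioxidant core was found in 3338 windows (10.2%), and no match lay in the windows of Slc7a11, Slc3a2, Nqo1 or Srxn1. It was present upstream of Gclm, Nfe2l2 and the second Txnrd1 start. RefSeq sequences matched 7 of the 10 genes with 9 start sites. Gclc, Gsr and Hmox1 were not among the matched genes. The cAMP response element TGACGTCA, held by 508 windows (1.55%), matched none of the 9. The hexamer AGAACA, 1 arm of the glucocorticoid receptor motif, matched upstream of Slc7a11, Gclm and the first Txnrd1 start and lay in 5284 windows (16.1%). A match is a run of letters and not a shown binding site. Only these letters were searched, so other spellings of an element inside the windows would be missed. Such elements can also lie beyond these windows.

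**Figure D1:**
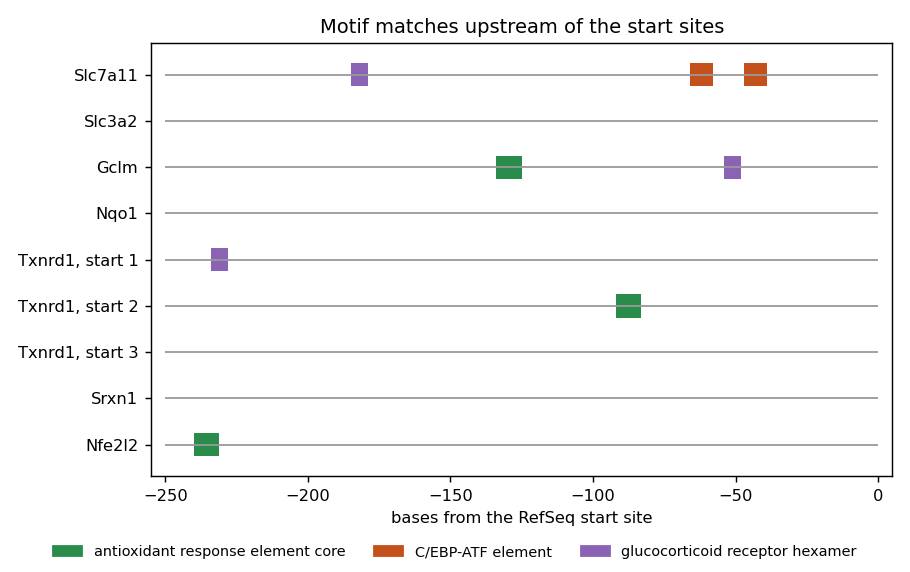
Matches to 3 motifs in the 250 bases upstream of 9 RefSeq start sites of 7 genes, by distance from the start in bases. Slc7a11 carries both C/EBP-ATF matches and no antioxidant core, which appears for Gclm, Nfe2l2 and the second Txnrd1 start.

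Slc7a11 was the gene of the set that stood apart. It read 10.23 and 11.60 on the combination arrays, against 7.67 and 7.19 on the vehicle arrays. The groups did not overlap, and the lowest combination array lay 2.55 above the highest vehicle array, more than the 1.37 between the combination arrays themselves. The mean was 10.91 ± 0.97 in the combination group and 7.43 ± 0.34 in the vehicle group (SD, n = 2 each), a log2 difference of 3.48 (SE 0.50) or 11.2-fold. Ordered from the most positive difference down, Slc7a11 was number 23 of 30142 genes. Without 1 array the difference stayed between 2.80 and 4.17, and it was 2.55 for the pair with number 1 and 4.41 for the pair with number 2.

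The signal of the partner chain differed far less. Slc3a2 read 11.85 and 12.15 on the combination arrays and 11.88 and 11.86 on the vehicle arrays. The groups overlapped, and the difference was 0.13 (SE 0.16), with the sign turning to -0.02 without combination 2. CD98hc also pairs with other light chains, and their signals differed by -0.31 to 0.22. Slc7a5 (LAT1, large neutral amino acids) read 13.27 and 13.90 on the combination arrays and 13.54 and 13.68 on the vehicle arrays. Slc7a6, Slc7a7 and Slc7a8 differed by -0.31, -0.24 and 0.22, and Slc7a10 lay within the background range in both groups.

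**Figure D2:**
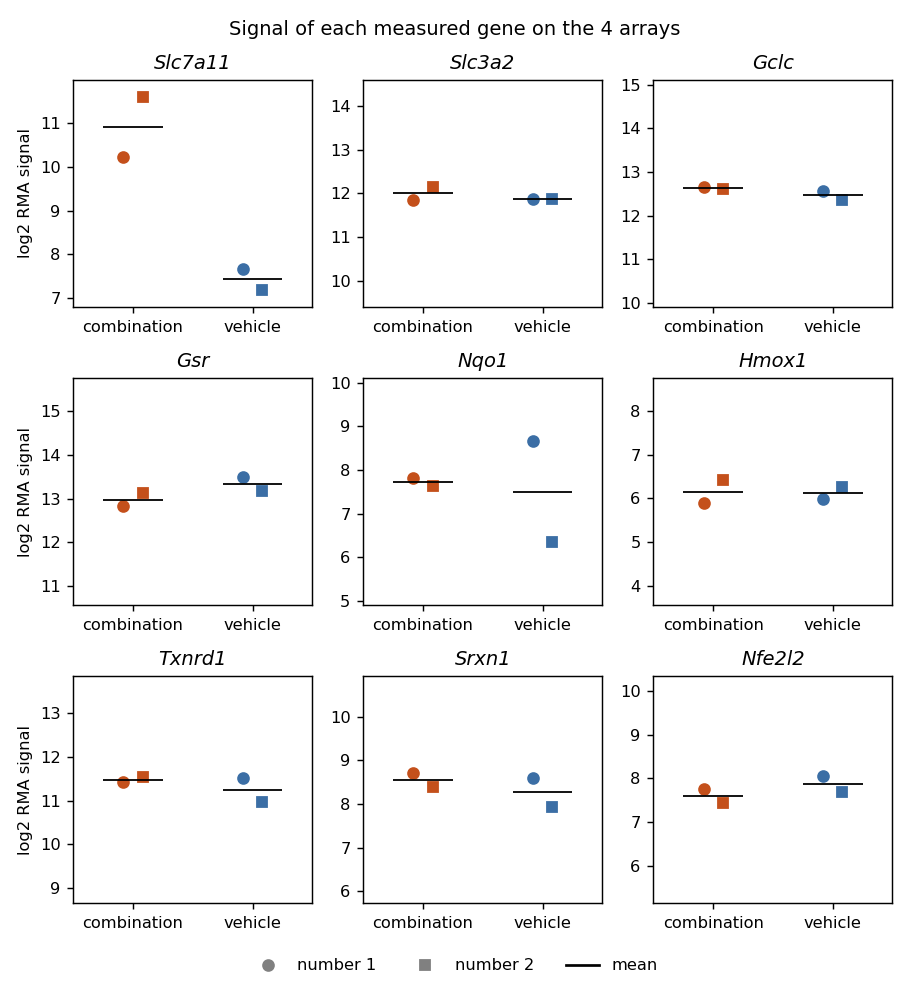
Log2 RMA signal of the 9 measured genes on each array, combination left and vehicle right. Circles are arrays numbered 1, squares those numbered 2 and lines the group means, and every panel spans the same log2 range. Slc7a11 separates the groups by 3.48, while the 2 vehicle arrays of Nqo1 lie 2.30 apart.

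The glutathione enzymes lay close together in both groups. Gclc, the catalytic subunit of glutamate-cysteine ligase, read 12.66 and 12.62 on the combination arrays and 12.58 and 12.36 on the vehicle arrays. Its combination arrays both lay above the vehicle arrays, by as little as 0.04, and the difference was 0.17 (SE 0.14). Gsr, which regenerates reduced glutathione with NADPH, read 12.83 and 13.13 on the combination arrays and 13.49 and 13.17 on the vehicle arrays. It was the gene of the set with the combination arrays below, again by as little as 0.04, with a difference of -0.35 (SE 0.19).

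NRF2's own transcript had a lower mean in the combination group, and Hmox1, Txnrd1, Srxn1 and Nqo1 had higher means, by 0.04 to 0.29, with overlapping groups for all 5 genes. Nfe2l2, which encodes NRF2, read 7.75 and 7.43 on the combination arrays and 8.05 and 7.70 on the vehicle arrays, a difference of -0.29 (SE 0.20). The activity of NRF2 is known to be set largely by the stability of the protein. Hmox1, the inducible heme oxygenase, read 5.89 and 6.42 on the combination arrays and 5.99 and 6.25 on the vehicle arrays, not far above the background range. Its difference of 0.04 (SE 0.23) changed sign to -0.02 with arrays centred on their medians and ran from -0.23 to 0.30 without 1 array.

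Txnrd1, the cytosolic thioredoxin reductase, read 11.43 and 11.53 on the combination arrays and 11.53 and 10.97 on the vehicle arrays. Srxn1, which repairs overoxidised peroxiredoxins, read 8.72 and 8.40 on the combination arrays and 8.60 and 7.94 on the vehicle arrays. In both genes the groups overlapped, with differences of 0.23 (SE 0.23) and 0.29 (SE 0.27). Without vehicle 2 these became -0.05 and -0.04.

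Nqo1, a quinone reductase often used as a readout of NRF2, varied most between arrays of 1 group. It read 7.81 and 7.64 on the combination arrays and 8.65 and 6.35 on the vehicle arrays. Both combination arrays lay between the vehicle arrays, and the difference of 0.22 (SE 0.77) was 1.37 without vehicle 1 and -0.93 without vehicle 2.

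Over the set, the median difference of the 9 genes was 0.17, against 0.01 over all 30142 genes. For 8 of them, all but Slc7a11, the difference lay inside the central 95% of all genes, -0.54 to 0.57. The combination arrays both lay above the vehicle arrays for 2 genes, Slc7a11 and Gclc (19.7% of all genes did so), and below for Gsr alone (15.4%). In limma's fit over all features, 0 of the 9 passed an adjusted p of 0.05, which 0.00303% of features passed. Slc7a11 alone had an unadjusted p under 0.05 in the upward direction, as did 2.66% of genes, and 0 of the 9 had one in the downward direction, against 2.65% (5.31% in either direction). A difference of 1 or more in size was also met by Slc7a11 alone, and by 1.31% of genes. Nothing is read from these counts, since the choice of genes used the same contrast.

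**Figure D3:**
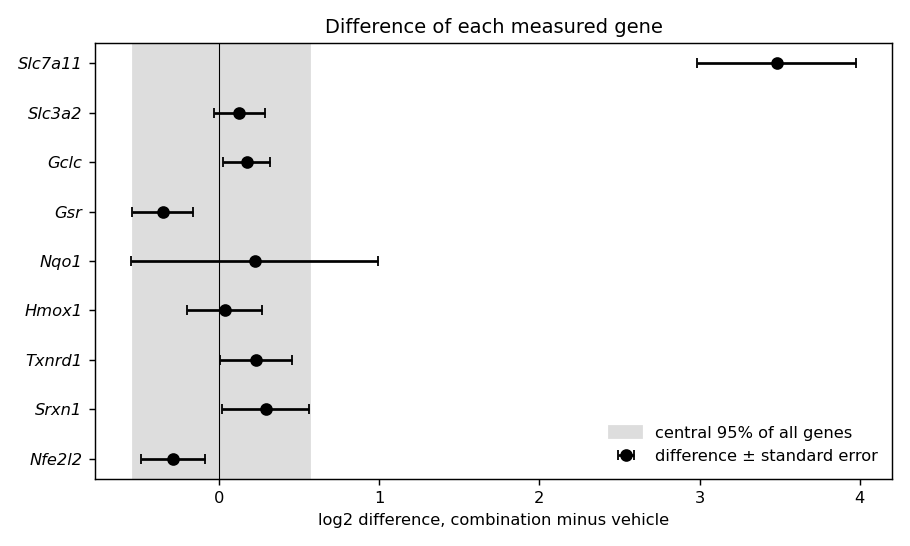
Log2 difference, combination minus vehicle, of the 9 measured genes with limma's standard error. The grey band holds the central 95% of all 30142 genes (-0.54 to 0.57). Slc7a11 at 3.48 is the point outside it, and the error bar of Nqo1 is the widest.

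Marker genes of other cell types that sorted marrow could hold were also compared between the groups. In limma 0 of the listed monocyte, macrophage and neutrophil genes passed an adjusted p of 0.05, which 0.00303% of features passed. Of 8 erythroid and 8 T and NK cell genes, 0 had an unadjusted p under 0.05. Of 8 monocyte genes, 5 were higher and 2 lower at an unadjusted p under 0.05 in limma, with mean signals of 9.35 and 9.46 on the combination arrays and 8.48 and 8.74 on the vehicle arrays. Over all genes 2.66% were higher and 2.65% lower at that level, which is the share to set beside each of these counts. The 5 higher monocyte genes were F13a1, Ms4a4c, Ms4a6c, Fn1 and Vcan, and the 2 lower were Ccr2 and Irf8. For Ly6c2 the groups overlapped. Of 14 macrophage genes, 4 were higher and 3 lower, with mean signals of 6.42 and 6.43 on the combination arrays and 6.26 and 6.37 on the vehicle arrays. The 4 higher macrophage genes were Cd14, C1qb, Spic and Mertk, and the 3 lower were Mrc1, Csf1r and Adgre1. Both group means lay within the background range for 6 of the 14, Spic, Mertk, C1qc, C1qa, Cd163 and Marco, with differences of 1.55, 0.52, 0.37, 0.14, 0.15 and 0.14. Of 11 neutrophil genes, 2 were higher (Mmp8 and Cxcr2) and 0 lower, with mean signals of 10.09 and 8.26 on the combination arrays and 9.54 and 7.21 on the vehicle arrays. The mean neutrophil signal was higher on the combination array in both same-numbered pairs. Cxcr2 and Mmp8 differed by 4.32 and 2.43, against a list median of 0.38. From combination 1 to combination 2 the median gap of the list was -1.09, and the gap of Slc7a11 was 1.37. Both group means lay within the background range for 3 of the 11, Ly6g (the surface marker of neutrophils), Mmp9 and Retnlg. Others were bright: S100a8 read 15.02 and 13.93 on the combination arrays and 14.74 and 13.45 on the vehicle arrays. Ngp read 14.98 and 9.93 on the combination arrays and 14.82 and 8.69 on the vehicle arrays. The part of monocytes, macrophages and neutrophils in the Slc7a11 difference was not tested.

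The protein-coding genes whose 4 centred values lay nearest to those of Slc7a11, among 18815 compared, were Plet1, Cd80, Plaur, Clec4e and Id2, at root mean square distances of 0.22 to 0.33. Cd80, a costimulatory ligand, read 8.46 and 10.22 on the combination arrays and 5.81 and 5.80 on the vehicle arrays. Plaur, the urokinase receptor, read 13.52 and 14.84 on the combination arrays and 10.43 and 10.77 on the vehicle arrays. Clec4e, the lectin Mincle, differed by 3.52, the transcriptional inhibitor Id2 by 2.98 and Plet1 by 3.60. That all 5 were higher on combination 2 than on combination 1, as Slc7a11 was, follows from choosing them by this distance. For Slc3a2 the nearest genes were Iffo2, Zcchc14, Ghsr, Bmp5 and Jmjd1c, within 0.0132, a likeness in a pattern that spans only 0.30 in all. Iffo2, Zcchc14, Ghsr and Bmp5 read under the highest background value, 5.55, on every array, while Slc3a2 read 11.85 or more. With 4 arrays such neighbours describe these samples alone.

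The wider redox network was read from 10 further lists, drawn up by function and holding none of the 10 genes. Of 160 listed genes 146 were measured, and 29 of those lay within the background range in both groups. In limma 0 of the 146 passed an adjusted p of 0.05, and the smallest adjusted p was 0.34. At an unadjusted p under 0.05, 4 were higher (2.74%) and 12 lower (8.22%). Over all genes these shares were 2.66% and 2.65%, and among genes with a mean signal above every background value they were 3.53% and 5.14%. The counts of each list below are to be set beside these shares. The median difference of the 146 genes was -0.05. Of the measured genes, 16 (11.0%) had both combination arrays above both vehicle arrays and 27 (18.5%) had both below, against 19.7% and 15.4% of all genes.

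**Figure D4:**
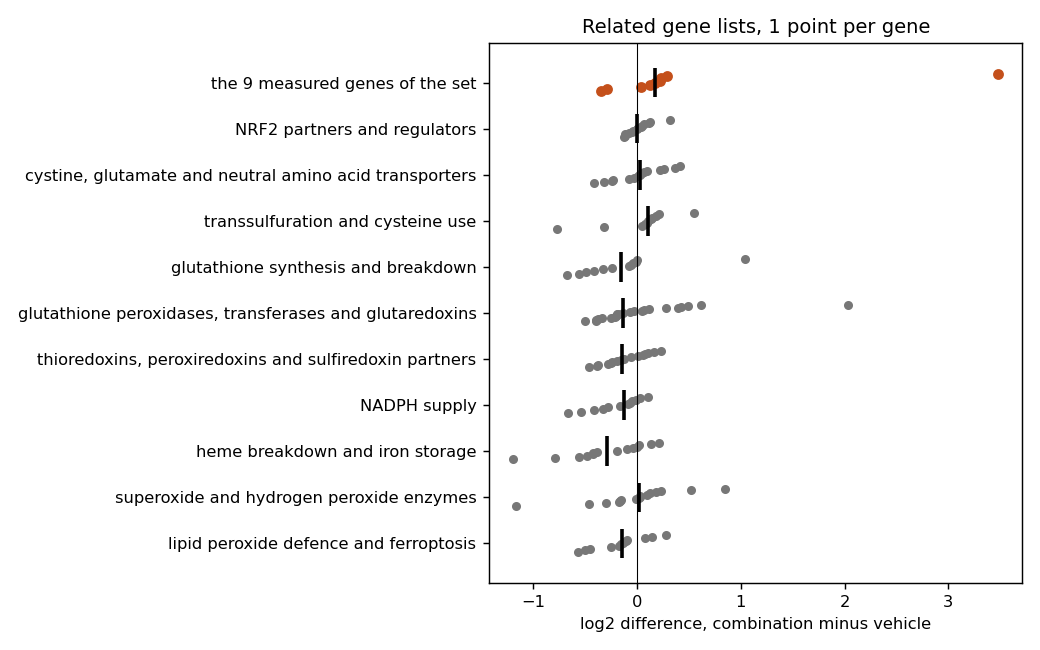
Log2 difference, combination minus vehicle, of the 9 measured genes and of the 146 measured genes in 10 related lists, 1 point per gene, with list medians as black bars. List medians lie between -0.29 (heme breakdown and iron storage) and 0.10 (transsulfuration and cysteine use), and Slc7a11 at 3.48 lies beyond every other point.

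None of the 14 measured partners and regulators of NRF2 had an unadjusted p under 0.05, and their differences ran from -0.12 to 0.31. Keap1, the sensor that marks NRF2 for degradation, read 7.59 and 7.55 on the combination arrays and 7.87 and 7.42 on the vehicle arrays. Bach1, a repressor that competes with NRF2 at Hmox1, read 9.02 and 9.82 on the combination arrays and 8.99 and 9.22 on the vehicle arrays. The small MAF genes Mafg and Mafk differed by 0.01 and -0.05, and Nfe2l1 and Bach2 by -0.12 each.

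Of 16 amino acid transporter genes, 0 had an unadjusted p under 0.05 in limma. Slc38a2, a sodium-coupled neutral amino acid carrier, read 11.38 and 11.91 on the combination arrays and 11.16 and 11.31 on the vehicle arrays (difference 0.41). Slc1a3, a glutamate carrier, stayed within the background range, and Slc43a1 differed by -0.42. Ctns, the lysosomal cystine exporter, differed by 0.03.

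In transsulfuration and cysteine use, 1 of 11 genes was higher and 1 lower at the unadjusted level. Ahcy, which splits S-adenosylhomocysteine, read 13.06 and 12.88 on the combination arrays and 13.86 and 13.61 on the vehicle arrays, a difference of -0.77 (limma adjusted p = 0.63). Cdo1, which oxidises cysteine, differed by 0.55 within the background range. Cth, the last enzyme on the route from methionine to cysteine, differed by 0.10 and Sqor by -0.32.

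Glutathione synthesis and breakdown had 1 of 12 genes higher and 3 lower at the unadjusted level (2.66% and 2.65% of all genes). Dpep2, a membrane dipeptidase, read 5.58 and 5.42 on the combination arrays and 4.45 and 4.46 on the vehicle arrays (difference 1.04, limma adjusted p = 0.34), with both means inside the background range. Chac2, which degrades glutathione in the cytosol, read 8.09 and 8.44 on the combination arrays and 8.89 and 8.76 on the vehicle arrays, a difference of -0.56. Anpep differed by -0.67, with its combination mean inside the background range. Gss, the enzyme that completes glutathione, differed by -0.33 with overlapping groups.

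Among 23 glutathione peroxidases, transferases and glutaredoxins, 1 was higher and 1 lower at the unadjusted level. Gsta4, a transferase for lipid aldehydes, had the largest difference of any wider list, 2.04 (SE 0.76, limma adjusted p = 0.89). It read 10.13 and 8.0 on the combination arrays and 7.40 and 6.65 on the vehicle arrays, so the combination arrays lay far apart. Gpx1, the main cytosolic glutathione peroxidase, read 17.26 and 17.16 on the combination arrays and 17.69 and 17.53 on the vehicle arrays, a difference of -0.40. Glo1, which detoxifies methylglyoxal with glutathione, differed by -0.34.

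No gene of the thioredoxin and peroxiredoxin list, of 16 measured, had an unadjusted p under 0.05. Txn1, the substrate of Txnrd1, read 15.38 and 15.53 on the combination arrays and 15.46 and 15.43 on the vehicle arrays. Sesn1, Tmx1 and Prdx4 differed by -0.39, -0.28 and -0.24. Of 12 NADPH supply genes 1 was lower at that level: Mthfd2, a mitochondrial folate enzyme, at 9.28 and 9.71 on the combination arrays and 10.02 and 10.04 on the vehicle arrays. Pgd of the pentose phosphate pathway differed by -0.33 and Idh2 by -0.28.

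Heme and iron genes had the lowest list median, -0.29, with 0 of 14 higher and 3 lower at the unadjusted level. Over all genes 2.66% were higher and 2.65% lower. Among genes with a mean signal above every background value the shares were 3.53% and 5.14%. Alas1, the first enzyme of heme synthesis, read 8.70 and 9.42 on the combination arrays and 10.14 and 10.37 on the vehicle arrays, a difference of -1.19 (SE 0.28, limma adjusted p = 0.70). Tfrc, the transferrin receptor, read 10.03 and 9.93 on the combination arrays and 10.79 and 10.74 on the vehicle arrays (difference -0.79, limma adjusted p = 0.49). The heme transporter gene Slc48a1 differed by -0.42. The ferritin genes Fth1 and Ftl1 differed by 0.22 and 0.00.

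Of 16 superoxide and peroxide enzyme genes, 1 was higher and 1 lower at the unadjusted level. Cybb, the catalytic subunit of the phagocyte oxidase, read 8.84 and 8.12 on the combination arrays and 9.63 and 9.66 on the vehicle arrays, a difference of -1.17 (SE 0.27, limma adjusted p = 0.70). Its partner Cyba differed by 0.52, in the other direction. Ugdh, a UDP-glucose dehydrogenase, differed by 0.85. The list on lipid peroxide defence bears, with Slc7a11, on the iron-dependent cell death called ferroptosis. At the unadjusted level 2 of its 12 genes were lower and 0 higher (2.65% and 2.66% of all genes). The 2 were Cisd1 (-0.51) and Nfs1 (-0.57), both of iron-sulfur biology. Lpcat3, which builds polyunsaturated phospholipids, differed by -0.45.

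Since the Slc7a11 window held C/EBP-ATF letters, 8 genes of the wider lists known as ATF4 targets were also read together, a choice made after the motif search. Chac1, Sesn2, Mthfd2, Slc7a5, Slc1a4, Slc1a5, Slc38a2 and Cth differed by -0.54 to 0.41, with 4 higher and 4 lower and a median of 0.04. Chac1, a sensitive ATF4 target, read 5.75 and 5.37 on the combination arrays and 5.63 and 6.33 on the vehicle arrays. These signals are close to the background range, and combination 2 lay under the highest background value, 5.55, so a lower level could hardly be seen. The part of ATF4 in the Slc7a11 difference was not tested.

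Within groups, the arrays themselves differed for these genes in a way the contrast did not use. On vehicle 2, 8 of the 9 genes read lower than on vehicle 1, as 46.6% of all genes did and 56.7% of those above background. Nqo1 was lower by 2.30, a drop that 66 of 30142 genes (0.219%) matched or passed. Srxn1 was lower by 0.66, Txnrd1 by 0.56, Slc7a11 by 0.48, Nfe2l2 by 0.35, Gsr by 0.32 and Gclc by 0.22. The gap was 0.2 or more for these 7 genes (20.2% of all genes). That share counts 17212 genes within the background range in both groups, where signals are compressed, and 0 of the 9 lay there. Slc3a2 was lower by 0.02, and Hmox1 alone was higher on vehicle 2, by 0.27. Between the combination arrays 4 of the 9 read lower on combination 2 (51.5% of all genes did), and Nqo1 differed by only 0.17.

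Marker signals differed with the array number too. All 11 neutrophil genes were lower on vehicle 2 than on vehicle 1, with a median gap of -1.52, and 10 of 11 were lower on combination 2, with a median gap of -1.09. For 8 erythroid genes the medians were -0.68 between the combination arrays and -1.0 between the vehicle arrays. For 10 progenitor genes the medians ran the other way, by 0.29 between the combination arrays and 0.34 between the vehicle arrays. Of the 10, 0 were lower on vehicle 2 and 2 were lower on combination 2. Kit was 1 of these 2, at 10.51 on combination 1 and 9.62 on combination 2. The part of these cells in the Nqo1 gap was not tested. With 1 array of each number per group, the gaps have no error of their own.

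**Figure D5:**
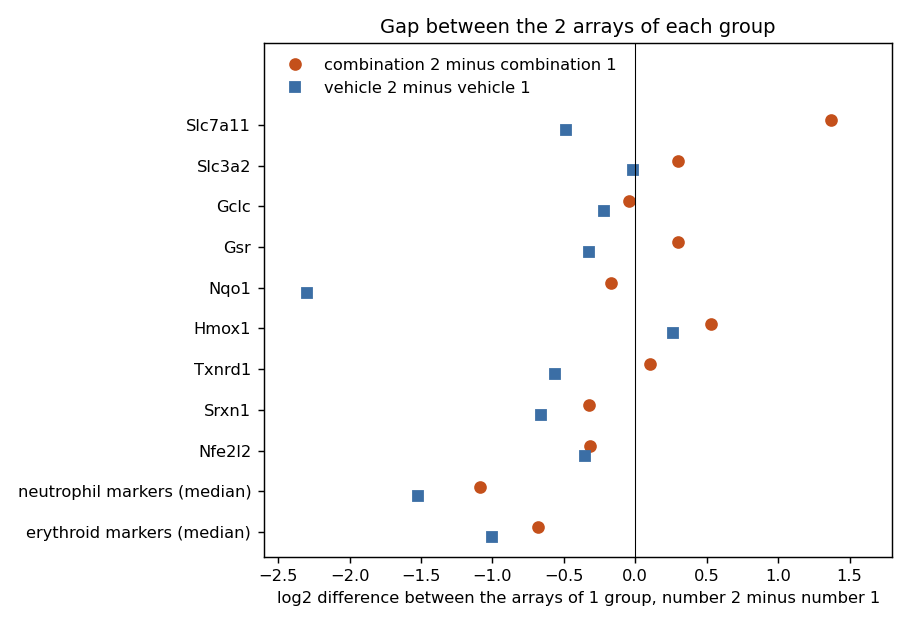
Gap between the arrays of each group, number 2 minus number 1 on the log2 scale, for the 9 measured genes and the medians of 11 neutrophil and 8 erythroid markers (orange, combination; blue, vehicle). Nqo1 has the largest vehicle gap of the 9, -2.30, and Slc7a11 the largest combination gap, 1.37.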

How the data were processed

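Each of the 4 arrays measured 10 ng of total RNA from LK cells, which per the labels' protocols was labelled with a GeneChip WT Pico kit. Per the submitters' processing notes the authors used RMA (Transcriptome Analysis Console), and deposited log2 signals. Its version and the genome build are not stated in any source used. RMA corrects background, aligns the arrays to 1 distribution and summarises probe sets, so low signals are compressed and a change in total RNA cannot be seen. Arrays carry no read depth, and 2 arrays per group limit the precision.

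Of 72688 rows, 6732 control rows were left out, which left 65956 features. Of these, 30604 had exactly 1 gene symbol, 2146 several (not named) and 33206 none listed. Symbols were updated through Entrez identifiers to RefSeq (GRCm38.p6) for 827 features, and the feature with the highest mean stood for each of 30142 genes. The design text calls duplicates biological, but their source is not given, so p-values measure the spread between these samples.

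limma 3.58.1 (R 4.3.3; lmFit and eBayes, group as the only term) was run over all features, two-sided, with Benjamini-Hochberg adjustment at 0.05. There were 2 residual degrees of freedom, and the prior added 2.59. The fit was tested on simulated data. An exact permutation test of 2 against 2 arrays cannot go below p = 0.3333 (two-sided), so none was used for single genes. The genes, the wider lists and the marker lists were chosen with earlier results of these data known. Named are all 9 measured genes of the set, for each wider list the 3 genes with the smallest p (with others of known role added after their values were seen), and the 5 nearest genes to Slc7a11 and to Slc3a2. "Background range" means a group mean at or under the highest single value of the 23 background probe sets. Motifs were searched on both strands of the RefSeq windows with Python 3.11.15. Alternatives were a replicate block, other priors, filters on dim features, other scalings, control rows kept, and each array left out.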

Additional observations from a re-analysis of the deposited data

How the results depend on the processing

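Over all 65956 features limma passed 2, against 19 with the replicate number as a block, 0 with an intensity trend, 0 with only features above the median, 0 after a second quantile normalization, 0 with control rows kept and 0 to 0 with 1 array left out, which leaves fewer residual degrees of freedom. The same-numbered arrays' deviations correlated at 0.33 over features, a hint from the data only, since nothing in the labels ties the numbers to a shared source. In the wider redox lists 0 of 146 genes passed in the replicate block fit and in every other alternative run. Genes there with an unadjusted p under 0.05 numbered 16, against 24 with the replicate block, 9 with an intensity trend, 9 with either filter on dim features (128 and 118 genes left) and 10 with control rows kept. The median of the 9 genes was 0.17, 0.19 after a second quantile normalization, 0.12 with arrays centred and -0.04 to 0.28 without 1 array, and that of the wider lists was -0.05, ran from -0.07 to 0.00 without 1 array, and was -0.11 with arrays centred. Over 7 settings each, Slc7a11, Gclc, Gsr and Nfe2l2 kept their sign, and the other 5 changed it at least once. Slc7a11 ran from 2.80 to 4.17. No gene of the set had a second probe set, so that alternative was not run. A leave-one-out fit assumes that the lone array varies like the other group. Dim genes are limited by background: Hmox1 lay less than 1 log2 unit above it.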

Other observations

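Several antioxidant, heme and iron genes that red cell precursors use heavily differed more between the arrays of 1 group than between the group means. They were picked with their values in view and carry no test. Cat, which encodes catalase, read 13.71 and 13.06 on combination arrays 1 and 2, and 14.10 and 13.26 on vehicle arrays 1 and 2. Prdx2, an abundant peroxiredoxin of red cells, read 11.18 and 10.69 on the combination arrays and 11.84 and 10.96 on the vehicle arrays. Blvrb, a biliverdin reductase, read 9.65 and 9.14 on the combination arrays and 10.00 and 9.17 on the vehicle arrays. Slc40a1, the iron exporter ferroportin, read 8.35 and 7.30 on the combination arrays and 8.99 and 7.43 on the vehicle arrays. All 4 were lower on the array numbered 2 of each group, as was Klf1, an erythroid factor, at 10.86 and 10.08 on the combination arrays and 11.53 and 9.96 on the vehicle arrays. Of the 8 measured erythroid markers, 6 were lower on number 2 in each group, and Alas2 and Slc4a1 were higher. Alas2, the erythroid heme synthesis gene, read 7.62 and 9.42 on the combination arrays and 8.16 and 9.49 on the vehicle arrays. Slc4a1, the red cell anion exchanger, read 9.75 and 11.41 on the combination arrays and 10.79 and 11.77 on the vehicle arrays. Not every such gene varied this way. The arrays of Tfrc lay 0.10 apart in the combination group and 0.05 apart in the vehicle group, against a group difference of -0.79.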
